A study of Mus musculus with 5 samples.

Results

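Ankrd1, Ankrd23, Csrp3, Tcap, Fhl1, Fhl2, Ldb3, Actn2, Myoz2 and Rcan1 encode proteins that sit at or near the Z-disc of heart muscle, bind titin or one of its partners, or answer to the calcineurin signal that starts there. The genes were chosen by name, with earlier results of these data known. Each was measured by 1 probe set that carries a single gene symbol, and the 10 probe sets stand among 21789 tested for 19938 genes. Gene expression had been measured in 5 heart grafts, each hybridised to its own Affymetrix Mouse Gene ST array. Donor and recipient mice were both C57BL/6, and the donor heart was placed heterotopically in the abdomen of the recipient. Grafts 2553, 2555 and 2557 came from hearts kept for 18 h at 4 °C in University of Wisconsin solution before implantation (I/R, n = 3). Grafts 2554 and 2556 came from hearts implanted at once (non-I/R, n = 2). The label on treatment repeats the storage step for all 5 grafts, so the groups were taken from the source label, which separates them. Harvest was 24 h after transplantation per the labels and at day 2 in the study's account of these arrays. The mice were 8 weeks old per the study's methods, and their sex was not given in the sources used here. A graft in this position is perfused through its coronary vessels and its left ventricle does little pumping work, and both groups share that setting, so no heart at its normal load was part of the comparison.

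The Z-disc borders each sarcomere and anchors the thin filaments and the ends of titin, the giant spring protein of muscle. Proteins bound there hold the filaments in register, and some of them also move to the nucleus or restrain signalling enzymes when the muscle is stretched or loaded, which is why the site is described as a stretch sensor of the heart. Mutations in several of these genes are known in cardiomyopathy.

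The values are log2 signals made by RMA, in which a difference of 1 is a 2-fold difference in signal. A fold change is the I/R mean minus the non-I/R mean on this log2 scale and is given with its standard error (SE) from limma. Signals of different probe sets were not ranked against each other, because each probe set has its own response. Medians of the arrays lay between 6.58 and 6.65. The 3 grafts against 2 can be split in 10 ways, so an exact permutation test cannot give a two-sided p below 0.1. The labels say no more of the animals than this, so a p-value here reflects how far these 5 samples scattered, which may be partly technical.

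Cold storage went with lower mean signals for most of the group. The mean was lower in I/R grafts for 9 of the 10 genes, against 54.4% of all probe sets, and the median of their log2 fold changes was -0.46, against -0.01 over all probe sets. In whole grafts, fewer cardiomyocytes and less RNA in each cardiomyocyte cannot be told apart. For Tcap, Fhl2, Ldb3, Actn2 and Myoz2, all I/R signals were below both control signals, which makes 5 of 10 where 16.2% of all probe sets separated in this direction. A single member, Fhl1, had a higher mean, against 45.6% of all probe sets. None of the 10 separated in that direction, against 15.8% of all. By limma, Fhl2 and Actn2 passed an unadjusted p of 0.05 on the lower side, 2 of 10 against 7.35% of all probe sets, and 0 were higher, against 7.64%. The methods' t-test passed 1 of them on the lower side, Fhl2, against 4.52% of all probe sets, and 0 members on the higher side, against 4.72%. Without graft 2554 the limma count was 0. Adjusted over all 21789 probe sets, 0 members passed by limma and 0 by the methods' t-test, against 0% and 0.00918% of the probe sets as a whole. The study's criterion of a 2-fold difference with an unadjusted p under 0.05 was met by 0 members, against 1% of all probe sets lower and 0.496% higher.

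**Figure D1:**
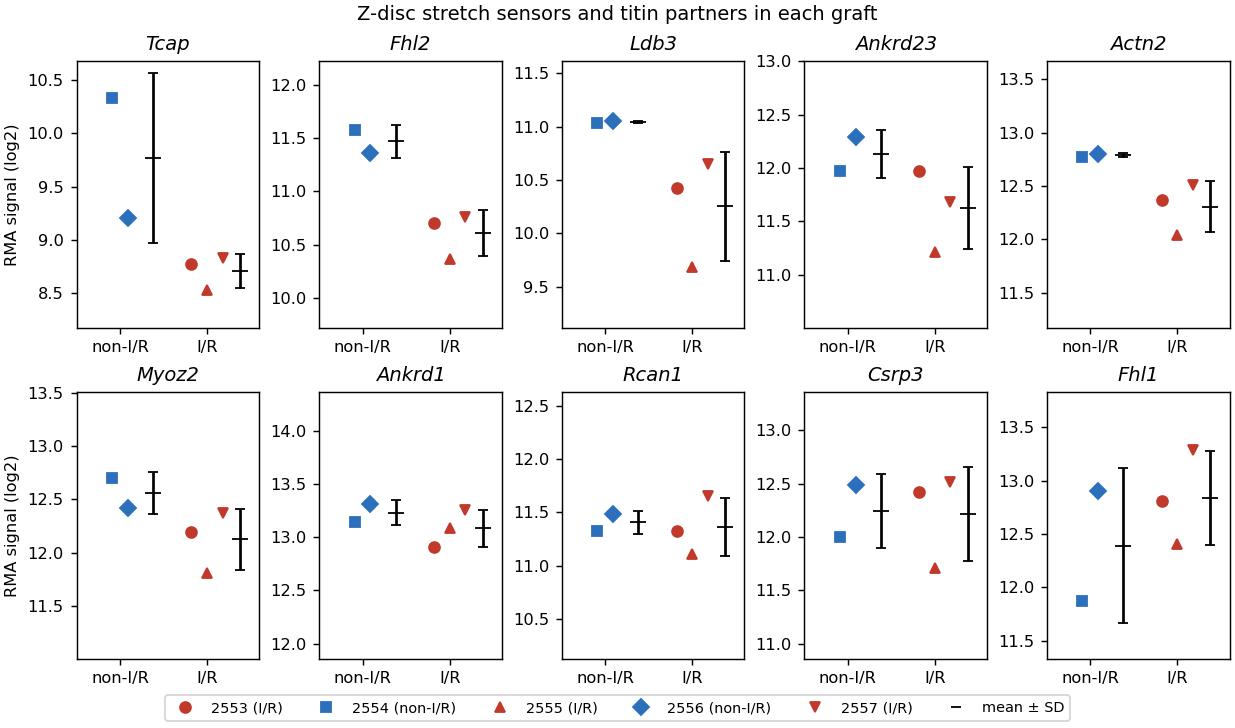
RMA signal (log2) of the 10 genes in each of the 5 grafts, with non-I/R grafts in blue and I/R grafts in red and bars for the mean ± SD of each group. Each panel has its own vertical range of equal length. The 3 red points lie below both blue points for Tcap, Fhl2, Ldb3, Actn2 and Myoz2, and the colours mix for Ankrd23, Ankrd1, Rcan1, Csrp3 and Fhl1.

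Actn2 encodes the cardiac α-actinin that crosslinks thin filaments at the Z-disc and binds the end of titin (probe set 10407742). Its signal was 12.77 and 12.80 in the non-I/R grafts and 12.37, 12.04 and 12.51 in the I/R grafts. The groups did not overlap, and the controls lay within 0.027 of each other while the I/R grafts spread over 0.46. The log2 fold change was -0.48 (SE 0.16, 95% interval -0.93 to -0.032), and limma gave an unadjusted p of 0.041 and an adjusted p of 0.319. This call was lost under 6 of the alternatives tried, among them the methods' t-test with an unadjusted p of 0.0738.

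Ldb3, also called Cypher or ZASP, holds a PDZ domain that binds α-actinin (probe set 10418950). The non-I/R grafts had signals of 11.04 and 11.05, and the I/R grafts 10.43, 9.68 and 10.65. Every I/R graft was below both controls, and graft 2555 lay well below the other I/R grafts. The log2 fold change was -0.79 (SE 0.34, 95% interval -1.74 to 0.16), with an adjusted p of 0.391 by limma. Without graft 2555 it was -0.50, with an unadjusted p of 0.019, and 4 of the 17 alternatives brought the unadjusted p under 0.05.

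Tcap encodes telethonin, which caps the ends of a pair of titin molecules in the Z-disc (probe set 10380887). Its signal was 10.33 and 9.20 in the non-I/R grafts and 8.77, 8.53 and 8.83 in the I/R grafts. The I/R grafts lay close together and below both controls, and the controls differed from each other by 1.13. Its log2 fold change of -1.06 (SE 0.39, 95% interval -2.15 to 0.038) was the lowest of the group and corresponded to a 2.08-fold lower signal, with an adjusted p of 0.342 by limma. Without graft 2554 the log2 fold change was -0.49, and without graft 2556 it was -1.62, so the size of the difference depended on which control was kept. Of the 17 alternatives tried, 7 brought its unadjusted p under 0.05.

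Myoz2 encodes calsarcin-1, which ties calcineurin to α-actinin and is known to restrain that phosphatase (probe set 10501895). Signals of 12.70 and 12.42 were read in the non-I/R grafts and of 12.19, 11.81 and 12.37 in the I/R grafts. The groups were apart by only the narrow step between graft 2557 and graft 2556. The log2 fold change was -0.44 (SE 0.21, 95% interval -1.03 to 0.16), with an adjusted p of 0.429 by limma. With a graft left out, it lay between -0.58 and -0.28.

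Fhl2 and Fhl1 are LIM-domain proteins that bind titin in the I-band, and Fhl1 is known for its part in the response of the heart to pressure load. Fhl2 had signals of 11.58 and 11.35 in the non-I/R grafts and of 10.71, 10.36 and 10.76 in the I/R grafts (probe set 10354247). The groups were clearly apart, with both controls well above the highest I/R graft. The log2 fold change was -0.86 (SE 0.16, 95% interval -1.31 to -0.40), a 1.81-fold lower signal, with an unadjusted p of 0.0068 and an adjusted p of 0.282 by limma. Leaving out each graft in turn gave fold changes between -0.97 and -0.73 on this scale, and the unadjusted p reached 0.0519 without graft 2554.

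Fhl1 was the single member with a higher mean in I/R grafts (probe set 10599736). Its signal was 11.88 and 12.90 in the non-I/R grafts and 12.81, 12.41 and 13.29 in the I/R grafts. The groups overlapped, and the controls lay farther apart than the I/R grafts did. The log2 fold change was 0.45 (SE 0.45, 95% interval -0.82 to 1.71), with an adjusted p of 0.610 by limma, and without graft 2554 it was -0.067.

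Csrp3, the muscle LIM protein that partners telethonin, was read at 12.00 and 12.49 in the non-I/R grafts and at 12.42, 11.71 and 12.51 in the I/R grafts (probe set 10563770). Both groups held a low graft and high ones, and their means differed by -0.03 (SE 0.33, 95% interval -0.98 to 0.91). The interval leaves room for nearly 2-fold differences either way.

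Ankrd1 and Ankrd23 are muscle ankyrin repeat proteins that bind the N2A part of titin, and Ankrd1 is a widely used transcript marker of cardiac load. Ankrd1 had signals of 13.14 and 13.31 in the non-I/R grafts and of 12.91, 13.09 and 13.25 in the I/R grafts (probe set 10467191). The groups overlapped within a narrow range, with a log2 fold change of -0.15 (SE 0.13, 95% interval -0.51 to 0.21) and an adjusted p of 0.557 by limma. Ankrd23 had signals of 11.97 and 12.29 in the non-I/R grafts and of 11.97, 11.21 and 11.69 in the I/R grafts (probe set 10353878). Grafts 2553 and 2554 shared the same value, so the groups met without separating, and the log2 fold change was -0.51 (SE 0.27, 95% interval -1.29 to 0.27), or -0.30 without graft 2555.

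Rcan1 encodes an inhibitor of calcineurin, and the shorter of its transcripts is itself induced by calcineurin and NFAT, which makes it a common readout of that pathway. The probe set for it (10440993) does not tell the transcripts apart. Its signal was 11.33 and 11.48 in the non-I/R grafts and 11.33, 11.11 and 11.65 in the I/R grafts. The I/R grafts lay on both sides of the controls, and the log2 fold change was -0.04 (SE 0.19, 95% interval -0.57 to 0.49).

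Graft 2555 had the lowest signal of the 5 for 8 of the 10 genes, and graft 2553 and graft 2554 for 1 each. Averaged over the 10 genes, the deviation from a gene's own mean was -0.47 in graft 2555, -0.078 in graft 2553 and 0.082 in graft 2557, against 0.21 and 0.26 in grafts 2554 and 2556. The I/R grafts therefore differed among themselves in these genes by more than graft 2557 differed from the controls.

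The promoters of the members were searched for motifs of the factors that are known to act on genes of heart muscle. RefSeq promoter windows on GRCm38.p6, from 250 bases before to 50 after a start, were at hand for 15 starts of 9 of the genes, all but Tcap. Both strands were searched. The CArG box, the site of serum response factor, was found in 5 of the 15 windows, for Fhl1, Fhl2 and Ldb3, and in 1.63% of 32851 windows of all genes. Both Ldb3 windows overlap and hold the same site. These stretches are shown because Fhl2 and Ldb3 were among the separated genes and Fhl1 was not, and all of them carry this box. Each reads 5′ to 3′ on the strand of the gene, with the box in capitals.
Fhl1, chrX:56779571-56779600: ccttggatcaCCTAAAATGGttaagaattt
Fhl2, upstream start, chr1:43196838-43196867: catttagagaCCAAAAAAGGcttgcaggag
Fhl2, downstream start, chr1:43163973-43164002: gcgcgtgtgtCCTTATATGGtcaaatgact
Ldb3, chr14:34588697-34588726: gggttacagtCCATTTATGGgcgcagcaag

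The M-CAT element, read by TEAD factors and spelled CATTCC, was found for Ankrd1 and Ankrd23, in 3 of the 15 windows, and in 14.7% of all windows. Ankrd1 had a pair of matches before its start, both on the opposite strand, and they are shown because the M-CAT element is a known control site of load-responsive heart genes while the signal of Ankrd1 overlapped between the groups. Capitals mark the element.
Ankrd1, farther from the start, chr19:36120037-36120066: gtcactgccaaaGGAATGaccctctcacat
Ankrd1, nearer to the start, chr19:36119950-36119979: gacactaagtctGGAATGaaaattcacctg

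A MEF2 site, which 3.19% of all windows hold, overlaps a TATAAA match on the opposite strand before the upstream start of Fhl2. The AP-1 site, spelled TGANTCA, was found for Ldb3, Myoz2 and Rcan1, in 4 of the 15 windows, and in 7.81% of all windows. For Rcan1 it lay before the downstream start, in the same window as 3 matches to the NFAT core GGAAA. That short word was found for 6 of the genes, in 7 of the 15 windows, and in 61.3% of all windows. The AP-1 site of Rcan1 and the MEF2 site of Fhl2 are shown in capitals, since both factors belong to calcium and stress signalling in muscle.
Rcan1, downstream start, AP-1, chr16:92400171-92400200: gcatgcgggaccTGACTCAggaatttgctg
Fhl2, upstream start, MEF2, chr1:43196773-43196802: tggacatgccTTATTTATAActctgctgac
The GATA site AGATAA was found for 3 of the genes, in 3 of the 15 windows, and in 11.2% of all windows. The TATA box TATAAA was found for 2 of the genes, in 2 of the 15 windows, and in 13.6% of all windows. A match is a string of letters in the window and was not tested as a bound site.

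Contractile genes outside the group also had lower means after cold storage, and the members were set against them. The list held Myh6, Tnnt2, Tnni3, Tnnc1, Actc1, Myl2, Myl3, Tpm1 and Mybpc3, which encode the myosin, troponin, actin, light chain, tropomyosin and myosin-binding proteins of the sarcomere. All 9 had a lower mean in I/R grafts. By limma, 6 of them passed an unadjusted p of 0.05 on the lower side, against 7.35% of all probe sets, and 0 passed after adjustment. Their mean signal was 13.10 and 13.00 in the non-I/R grafts and 12.48, 12.43 and 12.75 in the I/R grafts, a difference of -0.49. Markers of neutrophils moved the opposite way, with means over 11 genes of 8.64 and 8.90 in the non-I/R grafts and of 9.15, 9.78 and 9.45 in the I/R grafts. Of them, limma passed 5 as higher and 1 as lower at an unadjusted p of 0.05, against 7.64% and 7.35% of all probe sets. The part of the neutrophil markers in the results was not tested.

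After the deviation of these 9 genes was subtracted in each graft, the median fold change of the members was 0.033 on the log2 scale, and that of all probe sets moved to 0.48 by construction. A lower mean was left in 4 of the 10, against 5.99% of all probe sets, and a higher one in 6, against 94%. The upward move of all probe sets largely sets these shares on this scale, in both directions. A contrast with them therefore does not single out the members. The log2 differences of Ankrd23, Actn2 and Myoz2 were then -0.017, 0.010 and 0.055, so these genes differed between the groups by about as much as the contractile genes did. The sign turned for each of them under at least 1 choice of a graft left out.

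Tcap, Fhl2 and Ldb3 lay on the lower side after the subtraction, with log2 differences of -0.57, -0.37 and -0.30. Relative signals of Fhl2 were 11.23 and 11.11 in the non-I/R grafts and 10.98, 10.69 and 10.76 in the I/R grafts, which did not overlap. Those of Ldb3 were 10.69 and 10.81 against 10.69, 10.003 and 10.65, where graft 2553 and graft 2554 differed only in the fourth decimal. These 2 of 10 genes separated downwards, against 1.22% of all probe sets. That share is small by the same upward move, so the contrast does not by itself mark these genes out. Tcap overlapped, with 9.98 and 8.96 in the non-I/R grafts and 9.04, 8.85 and 8.83 in the I/R grafts, and its relative log2 difference was -0.052 without graft 2554. That of Ldb3 was -0.077 without graft 2555.

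Ankrd1, Rcan1, Csrp3 and Fhl1 lay on the other side, with relative log2 differences of 0.34, 0.45, 0.46 and 0.94. The sizes for Csrp3 and Fhl1 rested on which control was kept. Without graft 2554 they were 0.17 and 0.37, and without graft 2556 they were 0.75 and 1.501. For Ankrd1, leaving out graft 2554 gave 0.21. For Rcan1 the relative signals were 10.99 and 11.24 in the non-I/R grafts and 11.60, 11.43 and 11.65 in the I/R grafts. For Ankrd1 they were 12.80 and 13.07 against 13.18, 13.41 and 13.25, and for Fhl1 11.53 and 12.66 against 13.08, 12.73 and 13.29. These 3 of 10 genes separated upwards and Csrp3 overlapped, but 84.6% of all probe sets separated upwards on this scale, so the share says nothing particular about them.

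In this relative comparison limma fitted the same SE of 0.21 to every probe set, and its calls therefore take no account of how much a single gene varied. With that SE, 1 member was lower (Tcap) and 3 were higher (Rcan1, Csrp3 and Fhl1) at an unadjusted p under 0.05, against 1.68% and 71.2% of all probe sets, and the same 4 passed after adjustment, against 64.1%. The methods' t-test, which uses each gene's own spread, passed 0 members lower, 1 higher (Rcan1, unadjusted p = 0.0381) and 0 after adjustment, against 0.207%, 54.2% and 0% of all probe sets. Without graft 2554, limma passed none of the 10.

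**Figure D2:**
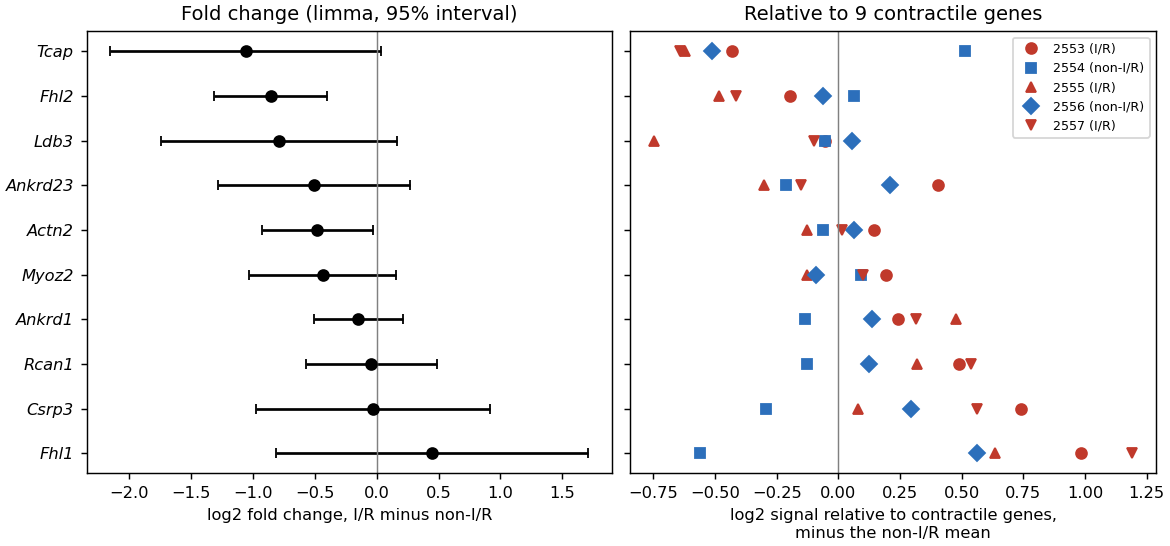
Left, log2 fold change of each gene, I/R minus non-I/R, with its 95% interval from limma. Right, the log2 signal of each graft after the mean deviation of 9 contractile genes was subtracted, minus the non-I/R mean (non-I/R blue, I/R red). The interval excludes 0 for Fhl2 and Actn2 alone, and on the right Fhl2 and Ldb3 have their red points to the left of the blue ones while Ankrd1, Rcan1 and Fhl1 have them to the right.

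Several members have close relatives that are expressed more widely or in other muscles, and the difference between a member and its relative was taken within each graft. For 11 such pairs the change of this difference was tested by an exact permutation test, two-sided and adjusted over the pairs. A total of 5 pairs reached the smallest p this design allows, 0.1 by the exact test (adjusted p = 0.22), so no pair could pass the threshold. How often other pairs of genes separate was not counted, and the part of cell content in these differences was not tested.

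The cardiac α-actinin Actn2 moved apart from its non-muscle relatives. Actn2 minus Actn1 was 2.98 and 2.11 in the non-I/R grafts and 1.102, 0.44 and 0.63 in the I/R grafts, a change of -1.82 on the log2 scale. Actn2 minus Actn4 changed by -1.03, with separated groups. Actn1 itself was higher in all I/R grafts, at 11.27, 11.60 and 11.88 against 9.79 and 10.69 (log2 fold change 1.34, SE 0.36, adjusted p = 0.290 by limma).

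Among the four-and-a-half LIM proteins the relatives went different ways. Fhl1 minus Fhl2 was 0.30 and 1.55 in the non-I/R grafts and 2.11, 2.05 and 2.53 in the I/R grafts, a change of 1.30. Fhl2 minus Fhl3 was 2.997 and 2.31 in the non-I/R grafts and 1.12, 0.26 and 0.76 in the I/R grafts, a change of -1.94. Both pairs separated the groups. Fhl3 was read at 8.58 and 9.05 in the non-I/R grafts and at 9.58, 10.10 and 9.998 in the I/R grafts (log2 fold change 1.08, SE 0.24, adjusted p = 0.284 by limma), so Fhl2 was lower where Fhl3 was higher. Without graft 2554 the change of Fhl1 minus Fhl2 was 0.68.

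Rcan1 minus Rcan2 was 0.061 and 0.35 in the non-I/R grafts and 0.59, 0.90 and 1.04 in the I/R grafts, a change of 0.64. Rcan2, another calcineurin inhibitor, had the difference in its own signal, which was -0.68 on the log2 scale (SE 0.19, adjusted p = 0.292 by limma), while that of Rcan1 was -0.04.

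In the remaining pairs the groups were separated by small steps or overlapped. Csrp3 minus Csrp1 changed by -0.56, Myoz2 minus Myoz1 by -0.45 and Ldb3 minus Pdlim5 by -0.43, each with separated groups and an exact p of 0.2. Ankrd1 minus Ankrd2 changed by -1.09, Ankrd1 minus Ankrd23 by 0.36 and Csrp3 minus Csrp2 by 0.049, all with overlapping groups. Without graft 2554 the changes of Myoz2 minus Myoz1 and Ankrd1 minus Ankrd2 were -0.25 and -0.22. Without graft 2555, those of Csrp3 minus Csrp1, Ldb3 minus Pdlim5 and Ankrd1 minus Ankrd23 were -0.34, -0.25 and 0.15. Myoz1 is the calsarcin of fast skeletal muscle, and its signal lay between 5.91 and 6.04 in every graft.

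**Figure D3:**
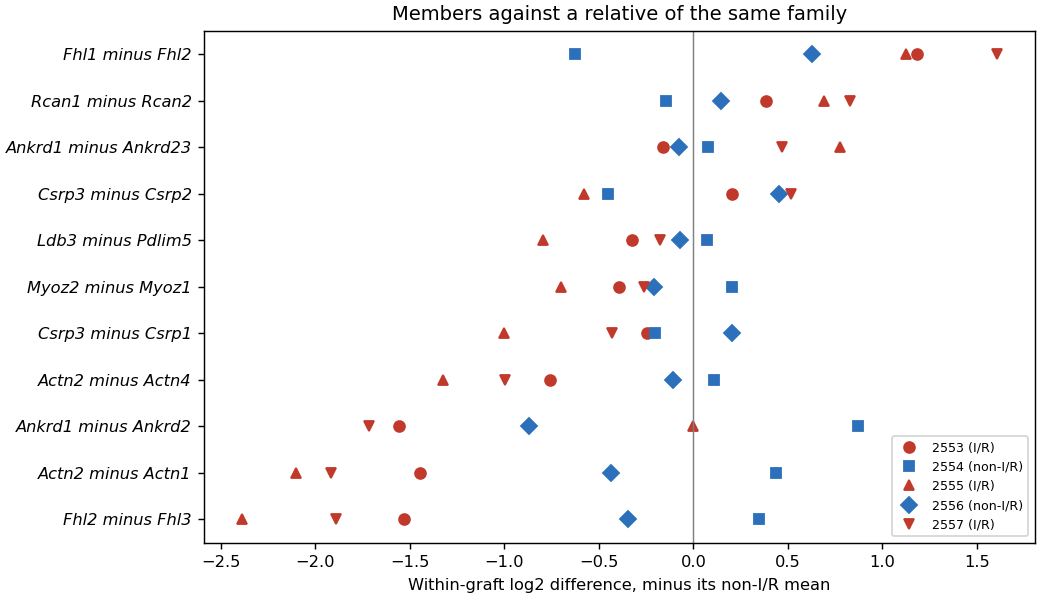
Within-graft log2 difference between a member and a relative of the same family, minus its mean in the non-I/R grafts (non-I/R blue, I/R red, 1 point for each graft). The red points lie to the left of the blue ones for both Actn2 pairs and for Fhl2 minus Fhl3. They also lie to the left, by small steps, for Csrp3 minus Csrp1, Myoz2 minus Myoz1 and Ldb3 minus Pdlim5. For Fhl1 minus Fhl2 and Rcan1 minus Rcan2 they lie to the right.

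The 5 grafts also differed in atrial transcripts, and for the atrial light chains the order did not follow the groups. Myl7, the atrial regulatory light chain, was read at 10.67 and 5.52 in non-I/R grafts 2554 and 2556 and at 6.72, 11.08 and 8.56 in I/R grafts 2553, 2555 and 2557. Myl4, the atrial essential light chain, was high in the same grafts, at 12.15 and 12.19 in grafts 2554 and 2555 against 7.94, 9.26 and 10.68 in grafts 2556, 2553 and 2557. Sln and Dkk3 were also highest in grafts 2554 and 2555, but the other markers on the list did not share this order. Nppa and Stard10 were lower in every I/R graft than in both controls. Bmp10 was read at 7.29 in graft 2554 and was lowest in graft 2555, at 4.79. Over the 7 atrial markers the mean signal was 9.84 and 7.37 in the non-I/R grafts and 7.73, 9.07 and 8.42 in the I/R grafts. Of the 7, 0 passed an unadjusted p of 0.05 by limma.

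Grafts 2554 and 2555, with the most Myl7 and Myl4, had the lowest Csrp3, at 12.00 and 11.71, and the lowest Fhl1, at 11.88 and 12.41. Ankrd2, the relative of Ankrd1 that is known from slow muscle, was lowest in the same grafts, at 7.84 and 8.65 against 9.75, 10.03 and 10.53 in the others. The pair holds 1 graft of each group. Tcap, Fhl2 and Myoz2 did not share this order and had their highest signal in graft 2554. These values describe 5 grafts, and the part of the atrial transcripts in the fold changes was not tested. Without both grafts, 1 control was left. The log2 fold changes of the 5 separated genes were -0.62 for Fhl2, -0.51 for Ldb3, -0.40 for Tcap, -0.36 for Actn2 and -0.14 for Myoz2.

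**Figure D4:**
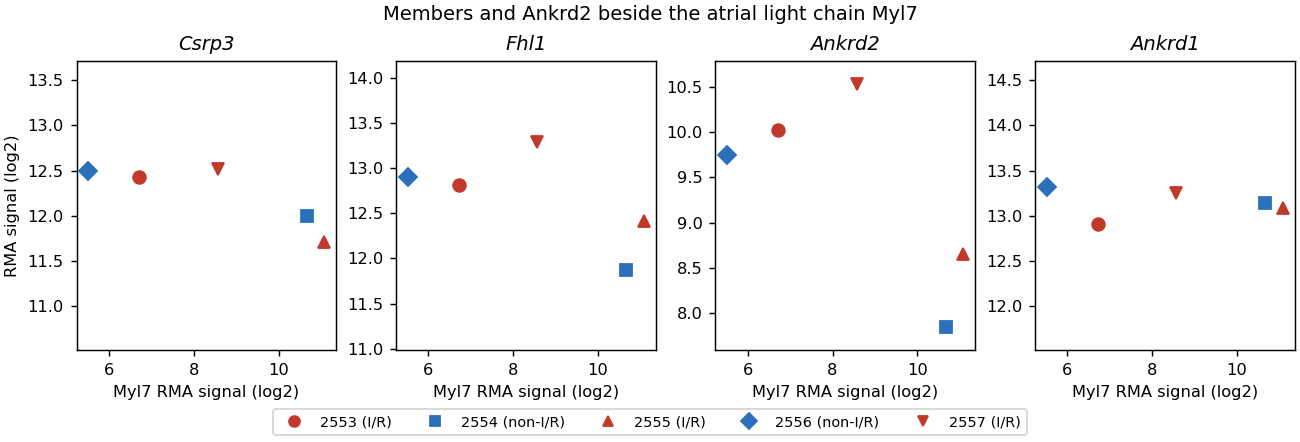
RMA signal (log2) of Csrp3, Fhl1, Ankrd2 and Ankrd1 plotted against that of the atrial light chain Myl7, with 1 point for each of the 5 grafts (non-I/R blue, I/R red). Grafts 2554 and 2555, at Myl7 signals of 10.67 and 11.08, hold the lowest points for Csrp3, Fhl1 and Ankrd2 but not for Ankrd1.

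By the similarity of their values across the 5 grafts, measured as the root mean square difference of deviations from each gene's own mean, the genes nearest to Tcap were Dpyd at 0.035, Serping1 at 0.083 and Fbln1 at 0.085. Those nearest to Fhl1 were Bhlhe41 and Enah, both at 0.084, and Ehd4 at 0.10. The 3 genes nearest to Tcap were, like Tcap, highest in graft 2554, and none of them is a gene of the sarcomere. With 5 values for each gene, the cause of such likeness was not tested.

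The wider circle of Z-disc genes was counted in the same fit. Of all probe sets, 7.35% were lower and 7.64% were higher at an unadjusted p under 0.05, and each list below is to be set beside these shares. Of 22 other Z-disc genes, 7 were lower and 0 were higher at that threshold. Their median log2 fold change was -0.24, or -0.14 without graft 2555. Nebl, whose product nebulette binds α-actinin and thin filaments, had signals of 11.08 and 10.81 in the non-I/R grafts and of 9.90, 9.45 and 9.73 in the I/R grafts. Its log2 fold change was -1.25 (SE 0.18, adjusted p = 0.282 by limma), and a further probe set for Nebl gave -0.72. Cmya5, or myospryn, which binds α-actinin and titin, differed by -1.36 (SE 0.24) on the log2 scale, and Mlip, a partner of lamin in muscle, by -1.03 (SE 0.24). Not every Z-disc gene lay on that side, and 8 of the 22 had a higher mean in I/R grafts, among them Flnc, the muscle filamin, at 11.39 and 12.61 in the non-I/R grafts and 12.72, 12.89 and 13.22 in the I/R grafts.

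Titin and its I-band and M-band partners had 14 measured genes of 16 listed, of which 8 were lower and 1 was higher at an unadjusted p under 0.05, with a median of -0.37. Ttn was read at 12.28 in both non-I/R grafts and at 11.52, 11.59 and 11.80 in the I/R grafts. The groups did not overlap, and the log2 fold change was -0.64 (SE 0.099, adjusted p = 0.282 by limma). Mybpc3 differed by -0.79 (SE 0.090) and Trim63, the ubiquitin ligase MuRF1 that binds titin at the M-band, by -0.43 (SE 0.088). The gene that was higher was Sqstm1, the autophagy receptor p62, with a log2 fold change of 0.51, named after its value had been seen. Some genes stand on more than 1 of these lists, such as Mybpc3, Cryab, Mypn and Ankrd2.

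Relatives of the members had 7 genes higher and 3 lower of 19 at an unadjusted p under 0.05, with a median of 0.11, which was 0.010 without graft 2557. Pdlim3, an α-actinin binding protein of muscle, was lower at -0.99 (SE 0.19), and Csrp1, the smooth muscle relative of Csrp3, was higher at 0.53 (SE 0.10). Rcan3 was higher by 0.17 (SE 0.035).

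The calcineurin and NFAT list had 14 measured genes of 16, with 1 lower (Rcan2) and 1 higher (Rcan3) at an unadjusted p under 0.05 and a median of -0.04. At 7.14% each, these counts are near the shares over all probe sets. Calm2, a calmodulin gene, came next by p, with a log2 difference of 0.13 (SE 0.059). Ppp3ca, a catalytic subunit of calcineurin, was read between 10.02 and 10.08 in all 5 grafts.

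Genes that stretch or hypertrophic stimuli are known to induce had 4 higher and 0 lower of 12 at an unadjusted p under 0.05, with a median of 0.65, which was 0.056 without graft 2554. Myc had signals of 9.49 and 10.08 in the non-I/R grafts and of 10.94, 11.39 and 11.25 in the I/R grafts (log2 fold change 1.40, SE 0.25). Edn1, the precursor of endothelin-1, differed by 1.04 (SE 0.21), and Ccn1, a matricellular protein that YAP drives, by 1.76 (SE 0.42). The natriuretic peptide genes, named after their values had been seen, did not pass that threshold: Nppb differed by 0.60 (SE 0.63) with overlapping groups, and Nppa by -0.36 (SE 0.20), with every I/R signal below both controls. Ankrd1 is also a target of YAP and TEAD. A list of 11 genes held other targets together with genes of the factors themselves, Tead1, Tead4, Yap1 and Wwtr1. It had 2 genes higher (Ccn1 and Tead4) and 0 lower at that threshold, with a median of 0.29, or 0.12 without graft 2557. Tead4 differed by 0.39 (SE 0.12) and Crim1 by 0.33 (SE 0.12).

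**Figure D5:**
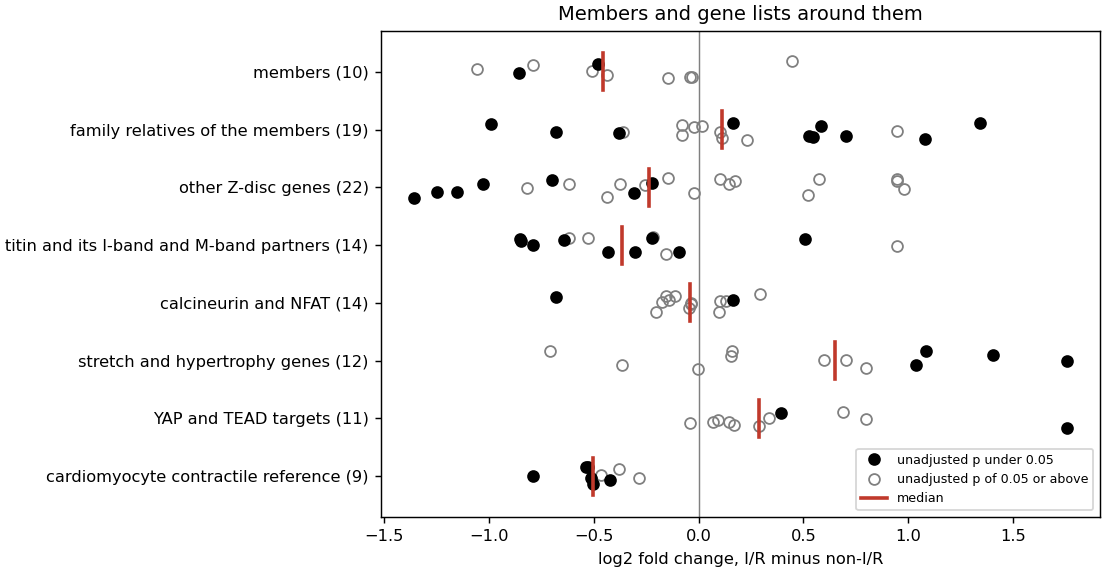
Log2 fold change, I/R minus non-I/R, of each measured gene in the members and 7 lists around them, with filled points for an unadjusted p under 0.05 by limma, open points for the other genes and a red line at the median of a list. The median of the members, -0.46, lies near that of the contractile genes, -0.50, and the stretch and hypertrophy genes have theirs at 0.65.

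Markers of skeletal muscle had mean signals between 6.07 and 6.17 in the 5 grafts. Of these 10 genes, 1 was lower and 0 were higher at an unadjusted p under 0.05, against 7.35% and 7.64% of all probe sets. For smooth muscle, endothelial and macrophage markers, 0 of 8 genes each were lower or higher at that threshold. Of 8 fibroblast markers 1 was lower, Dcn, and of 3 measured erythroid markers 0 passed.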

How the data were processed

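The authors deposited log2 values, made from the array scans with RMA in Partek per the submitters' processing notes, which name neither version. A genome build for the probe sets is not given in the sources used here. RMA corrects background and gives all arrays a shared distribution, which can hide a change that most genes share. Of 35556 probe sets, the platform annotation gives 21789 a single symbol, 1621 have several and 12146 are not listed. Symbols were updated through gene IDs, of which 21698 (99.6%) were found. Values were tied between arrays in 11715 probe sets, and 757 had the same value on all 5. Of the members, 2 had tied values.

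Groups were compared by lmFit and eBayes of limma 3.58.1 (R 4.3.3) over all 21789 probe sets, with a prior df of 0.824 and with Benjamini-Hochberg adjustment at 0.05. The study's one-way comparison in 2 groups, called the methods' t-test, was an alternative, beside other filters, normalizations and eBayes settings, array weights and leaving out grafts. In lists, a gene with several probe sets is represented by the brightest over all grafts. The steps were tested on simulated data. The members and the 15 other lists, together 168 genes, were chosen with earlier results of these data known. Named genes are the members, their paired relatives, the 3 genes of smallest p in each of the other gene lists and the 3 genes nearest to the members with the highest and lowest fold change, with others where a partner had to be described. The number of arrays limits the precision. Figures used matplotlib 3.10.9 and Python 3.11.15. miRNA arrays and other assays of the study were not analysed here, and a promoter match of 1 member is not reported here.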

Additional observations from a re-analysis of the deposited data

How the results depend on the processing

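The number of members lower at an unadjusted p under 0.05, 2 as reported, was 4 with only untied probe sets (8 members), 4 after quantile normalization, 4 after cyclic loess, 1 with array weights, 1 by the methods' t-test and 0 to 3 with a graft left out. It was 0 without graft 2554 and 1 without graft 2553. With graft 2554 or 2556 left out, the lone control is assumed to vary like the I/R grafts. Apart from the methods' t-test, the matching shares of all probe sets were not counted under these alternatives, here or relative to the contractile genes. A changed count is therefore not read as particular to the members. Between 7 and 10 members had a lower mean with a graft left out, and the median fold change of the members lay between -0.55 and -0.29 on the log2 scale.

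Relative to the contractile genes, the number lower (1 as reported) was 2 after quantile normalization, 2 after cyclic loess, 2 with the median of the reference genes, 0 by the methods' t-test, 0 without grafts 2554 and 2555, and 0 to 1 with a graft left out. The number higher (3 as reported) was 1 with only untied probe sets, 1 by the methods' t-test, 1 with the median of the reference genes, 0 without grafts 2554 and 2555, and 0 to 3 with a graft left out.

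Some log2 differences changed sign. Csrp3 was 0.022 after quantile normalization and 0.11 with array weights, and lay between -0.28 and 0.22 with a graft left out. Rcan1 was 0.087 with array weights, 0.0081 without grafts 2554 and 2555, and -0.19 to 0.084 with a graft left out. Fhl1 lay between -0.067 and 0.96. On the relative scale Actn2 was -0.031 after quantile normalization, -0.071 with the median of the reference genes, and -0.057 to 0.079 with a graft left out. Myoz2 was -0.026 with that median and -0.036 to 0.15 with a graft left out, and Ankrd23 lay between -0.23 and 0.19. The difference Csrp3 minus Csrp2 lay between -0.40 and 0.50, and the median of the stretch and hypertrophy genes between 0.056 and 0.82. The cause of these shifts was not tested. No paired analysis was possible because the labels link no I/R graft to a non-I/R graft. No member passed an adjusted p of 0.05 under any alternative outside the relative scale.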
